A study of Mus musculus with 4 samples.

Results

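The interferon-stimulated genes described here are a set of 42 genes that cells switch on in response to interferon, listed by name with earlier results of these data known. Of the 42, 39 had a probe that could be named and 37 were well above background on at least 1 array, among 18539 named genes of which 13156 met the same condition. Transcripts were measured in Th2 cells on single-dye Agilent mouse arrays, with 1 array for each of 4 conditions, so that no difference below has a replicate check, an SD between samples or a p-value. Per the labels, splenic CD4 T cells of female C57BL/6J mice were activated for 2 days with anti-TCR-β (3 µg/ml) and anti-CD28 (1 µg/ml) antibodies together with IL-4 at 10 ng/ml and IL-2 at 2.5 ng/ml, and were then kept for a further 3 days with the same cytokines. The SH-2251 cells also received SH-2251, a small compound made as an inhibitor of IL-5 production, for which the labels give 1 µM in the first phase and 1 mM in the second. The paper's methods give a lower default dose, start from naïve CD4 T cells and add an antibody against IFN-γ to Th2 cultures, none of which the labels list. Resting cells were taken after the culture, and restimulated cells after 4 h on immobilized anti-TCR-β antibody. How many mice each array stands for is not given in the sources used here.

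Type I interferons signal through the receptor pair IFNAR1 and IFNAR2 to transcription factors, STAT2 and IRF9 among them, that bind the interferon-stimulated response element (ISRE) in front of antiviral genes. IFN-γ signals through IFNGR1 and IFNGR2, acts on genes with a gamma-activated site (GAS) and induces those of antigen processing and the interferon-inducible GTPases. T cells both make IFN-γ and respond to interferons, and a low level of these genes is usually present without infection.

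Signals are given on the log2 scale as the distance from the array's 75th percentile, and a difference of 1 on this scale is 2-fold. The technical SD of a difference comes from the scanner software, covers error within arrays only and had a median of 0.20 over the genes. Where a probe was well above background on only 1 array of a pair, the dim side was raised to the dimmest above-background level. The difference is then a bound written as "at least". A dim side that was already above that level kept its own signal. Where the raising would have turned the sign of a bound, the bound was set to 0. The technical SD was computed before the dim side was raised, so it does not describe the error of a bound. The 75th percentile was at 499.4 to 614.5 intensity units, and each array had 56.0% to 56.7% of its probes well above background. All 6 T cell and Th2 markers (Cd3e, Cd4, Gata3, Il4, Il13 and Il5) were above background on the 4 arrays. In samples of bulk RNA, fewer cells of a type and less RNA per cell cannot be told apart.

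With SH-2251, 9 of the 36 interferon-stimulated genes that could be compared in resting cells had a signal at least 2-fold lower, and 1 had one at least 2-fold higher. Over all 12683 genes compared, 2.9% were at least 2-fold lower and 2.22% higher. The 9 were Ifih1, Dhx58, Ifit1, Oas1a, Oasl1, Isg15, Usp18, Rsad2 and Rtp4, and the gene that was higher was Zbp1. The median difference was -0.36 for the set and -0.06 for all genes. In restimulated cells 9 of 36 were again at least 2-fold lower and 1 higher, against 2.78% and 2.65% of 12622 genes, with medians of -0.35 and -0.06. Here the 9 were Dhx58, Ifit1, Ifit3, Oas1a, Oasl1, Usp18, Rsad2, Cmpk2 and Rtp4, and Zbp1 was again the gene that was higher. At 1.5-fold, resting cells had 13 members below and 1 above, beside 7.45% and 6.09% of all genes, and restimulated cells had 14 and 1, beside 7.15% and 6.9%.

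Bounds enter those counts only where the bright side passed the background limit, so the 31 genes above background on all 4 arrays are given on their own. In resting cells 6 of the 31 were at least 2-fold lower and 1 higher, where 2.15% and 1.59% of 11518 genes were. In restimulated cells 5 were lower and 1 higher, where 1.82% and 2.1% were. The lower genes were mostly those with a dim probe. Among members whose probe averaged below the 75th percentile, 7 of 12 (58.3%) were at least 2-fold lower in resting cells and 8 of 12 (66.7%) in restimulated cells, beside 4.79% and 4.95% of all genes in that range. Among members above it, 2 of 24 and 1 of 24 were, beside 1.41% and 1.09%. These counts by signal include bounds. Of the lower dim members, Ifit1 and Oasl1 in resting cells and Ifit1, Ifit3, Oasl1 and Rsad2 in restimulated cells were bounds. They entered through the control array alone, so that they could only come out lower or unchanged. With another background correction (normexp, an added offset of 50) 3 members were lower in resting and 2 in restimulated cells, since 7 of the 10 calls were lost in either state. The share of all genes was not computed with this correction, so these counts cannot be set beside the shares above.

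**Figure D1:**
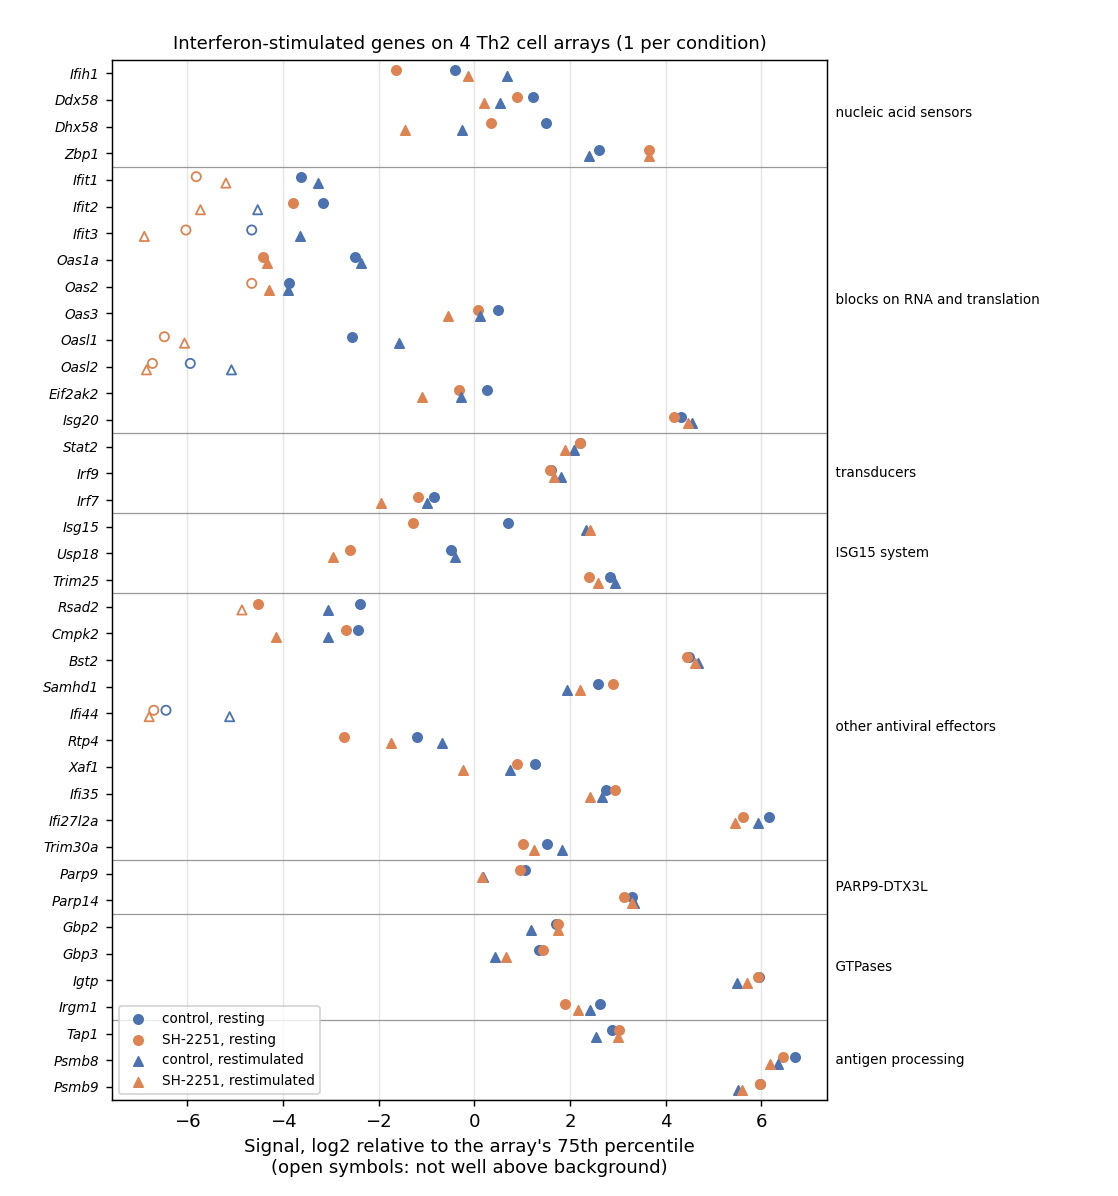
Signal of the 39 interferon-stimulated genes with a probe, as log2 relative to the array's 75th percentile, on the 4 arrays (blue control, orange SH-2251, circles resting, triangles restimulated). Genes are ordered by role, and open symbols were not well above background. Usp18, Oas1a and Oasl1 show both orange symbols left of both blue ones, while Isg15 shows this in resting cells alone.

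The ISG15 system held Isg15 and Usp18, which with Rsad2 had the 3 largest measured differences of the set in resting cells. Isg15, which encodes a ubiquitin-like protein that is attached to other proteins, read 0.69 in resting control cells and -1.28 in resting SH-2251 cells. After restimulation it read 2.34 in control cells and 2.42 with SH-2251. The difference with SH-2251 was therefore -1.98 (technical SD 0.21), or 3.94-fold lower, in resting cells and 0.09 (technical SD 0.20) in restimulated cells. The restimulated SH-2251 array thus lay beside the restimulated control array, and the resting SH-2251 array below the other 3.

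Usp18 encodes the protease that removes ISG15 from its targets and that also restrains the type I interferon receptor. Its probe read -0.49 and -0.41 on the resting and restimulated control arrays and -2.60 and -2.95 on the SH-2251 arrays. Both SH-2251 arrays were lower than both control arrays, by 4.31-fold in resting and 5.82-fold in restimulated cells. Trim25, a ligase that acts in RNA sensing, was 1.35-fold lower in resting and 1.27-fold lower in restimulated cells, and so within 2-fold.

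Of the 4 nucleic acid sensors, Ifih1 (MDA5, a sensor of long double-stranded RNA) read -0.40 and 0.69 on the resting and restimulated control arrays and -1.63 and -0.13 with SH-2251. It was 2.35-fold lower with SH-2251 in resting cells and 1.76-fold lower in restimulated cells. Dhx58 (LGP2, a regulator of the other RNA sensors) read 1.49 and -0.25 without and 0.35 and -1.44 with SH-2251. Its difference was nearly equal in the 2 states, at -1.15 and -1.19. Ddx58 (RIG-I, a sensor of short RNA with a free triphosphate end) was only 1.25-fold and 1.28-fold lower.

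Zbp1, which senses left-handed nucleic acid and can start a programmed cell death, went the other way. Its signal was 2.60 and 2.40 on the control arrays and 3.65 on either SH-2251 array. The resting SH-2251 cells were 2.08-fold and the restimulated ones 2.38-fold above their controls, and Zbp1 was the only member past 2-fold upward in either state.

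The group that blocks viral RNA and translation had 10 members, and all 8 that could be compared in each state were below 0. Over all genes, 7290 of 12683 in resting and 7302 of 12622 in restimulated cells were below 0. Of the 8, Ifit1, Oas2 and Oasl1 in resting cells and Ifit1, Ifit3 and Oasl1 in restimulated cells were bounds. Bounds of this kind could not come out above 0. With the normexp correction, however, Oas1a and Ifit2 were above 0 in resting cells. The resting values of Ifit1, Oas2 and Oasl1 were 0 under an alternative. This 0 is the limit set for a bound that would have come out above 0, not a measured equality. Oas1a, one of the enzymes that make the oligoadenylates that switch on RNase L, read -2.49 and -2.36 in control cells and -4.43 and -4.33 with SH-2251. This was 3.83-fold lower in resting (technical SD 0.34 on the log2 scale) and 3.92-fold lower in restimulated cells (technical SD 0.32). The resting difference of -1.94 was 0.13 with the normexp correction and -0.90 when spots of uneven background were also left out. Oas3, of the same family, differed by -0.43 and -0.66, while Oas2 had a bound of -0.78 in resting and a difference of -0.38 in restimulated cells.

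Oasl1, an OAS-like protein known in the mouse to hold back translation of Irf7, was above background in control cells alone. It read -2.55 and -1.57 on the control arrays and -6.48 and -6.06 on the SH-2251 arrays, where it was not well above background. The signal was at least 4.29-fold lower in resting and at least 8.98-fold lower in restimulated cells. The technical SDs of 1.05 and 0.77 belong to the unraised differences of -3.93 and -4.49, not to these bounds of -2.10 and -3.17. With normexp the resting bound would have come out above 0 and was set to 0. The restimulated value reached -1.87 under an alternative. Ifit1, which binds foreign RNA and stops its translation, had the same pattern of detection, with -3.63 and -3.27 in control cells. It was at least 2.03-fold lower with SH-2251 in resting and at least 2.77-fold lower in restimulated cells. Under the alternatives Ifit1 ranged from -2.18 to 0 in resting and from -1.93 to -0.83 in restimulated cells, the 0 again being the limit set for a bound.

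Ifit2, a relative of Ifit1, was well above background in resting cells alone, at -3.17 without and -3.79 with SH-2251. This difference of -0.61 turned to 0.65 with the normexp background correction. Ifit3, a partner of Ifit1, was detected in restimulated control cells alone, at -3.64, and was at least 2.14-fold lower with SH-2251 there. This bound of -1.09 ranged from -3.26 to -0.57 under the alternatives. The technical SD of 1.45 belongs to the unraised difference of -3.26. Eif2ak2 (PKR, the kinase that stops translation when it meets double-stranded RNA) differed by -0.59 and -0.82. Isg20, an RNA exonuclease, differed by -0.15 and -0.08, less than its technical SD. Oasl2 stayed near background on all 4 arrays.

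Among the other antiviral effectors, Rsad2 (viperin, which makes a chain-terminating nucleotide) read -2.39 and -3.07 in control cells and -4.53 and -4.86 with SH-2251, the last not well above background. It was 4.39-fold lower in resting and at least 3.18-fold lower in restimulated cells. The resting difference of -2.14 was 0.0006 with the normexp correction and -1.08 when spots of uneven background were also left out. The 2 further Rsad2 probes were near or below background and give no measured difference. Cmpk2, a mitochondrial nucleotide kinase, read -2.43 and -2.68 in resting control and SH-2251 cells, which is within 2-fold, and the difference of -0.24 turned to 0.58 with normexp. In restimulated cells it read -3.05 and -4.14, 2.13-fold lower with SH-2251. Rtp4, an interferon-induced receptor transport protein, read -1.21 and -0.69 in control cells and -2.73 and -1.74 with SH-2251. It was 2.86-fold lower in resting and 2.07-fold lower in restimulated cells.

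The remaining members of this group with a value were within 2-fold in both states. Xaf1, which promotes apoptosis, was nearest to the limit, with -0.39 in resting and -0.98 in restimulated cells. Ifi27l2a differed by -0.54 and -0.48, and Trim30a by -0.51 and -0.58. Bst2 (tetherin, which holds budding virus at the cell surface) differed by -0.05 in both. Samhd1, which depletes nucleotides, was 0.31 and 0.26 above control. Ifi35 was 0.19 higher in resting and 0.25 lower in restimulated cells. Ifi44, like Oasl2, stayed near background throughout.

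The genes that carry the interferon signal themselves differed little in resting cells. Stat2 and Irf9, whose products take part in binding the ISRE, differed by -0.01 and -0.01 in resting cells and by -0.19 and -0.13 in restimulated cells. Irf7, the factor that amplifies type I interferon production, read -0.84 and -1.18 in resting control and SH-2251 cells and -0.99 and -1.96 in restimulated ones. Its difference was -0.34 in resting and -0.97 in restimulated cells, so that it was 1.96-fold lower in the latter and just within 2-fold. Parp9 and Parp14, ADP-ribosyltransferases of interferon responses, differed by no more than 0.16.

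The GTPases and the antigen processing genes, which are classical targets of IFN-γ, did not include any member past 2-fold. Gbp2 was at 0.06 in resting and 0.55 in restimulated cells, Gbp3 at 0.09 and 0.23, and Igtp at -0.02 and 0.21. Irgm1 differed by -0.72 in resting cells, 1.65-fold lower, and by -0.26 in restimulated cells. Tap1, the peptide transporter, differed by 0.14 and 0.46, Psmb8 by -0.25 and -0.16, and Psmb9 by 0.01 and 0.09, the last 2 being subunits of the immunoproteasome. The median differences in resting and restimulated cells were 0.02 and 0.22 for the 4 GTPases and 0.01 and 0.09 for the 3 antigen processing genes. For the blocks on RNA and translation they were -0.70 and -0.96, with bounds that could not come out above 0 included. No value of the GTPases or antigen processing genes was a bound.

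The differences in the resting and in the restimulated pair rest on separate arrays. Separate cultures for the 2 states are not given in the sources used here, so the states cannot be counted as independent checks. Of 35 members compared in both states, 7 were at least 2-fold lower in both (20%), and 1.37% of 12149 genes were. The 7 were Dhx58, Ifit1, Oas1a, Oasl1, Usp18, Rsad2 and Rtp4. With normexp Usp18 was the only member at least 2-fold lower in both, and without spots of uneven background 2 members were, Usp18 and Oasl1. Where both arrays of a pair had to be above background 4 were, and Ifit1 was no longer among the genes lower in both under median or quantile scaling. The share of all genes was not computed for these alternatives. Zbp1 was the member at least 2-fold higher in both, as were 1.23% of all genes, and no member was with normexp. The difference was below 0 in both states for 26 of the 35 members and for 5610 of the 12149 genes. Among members measured on both arrays of a pair, 12 of 33 in resting and 10 of 32 in restimulated cells differed by no more than 1 technical SD. The same share over all genes was not computed. For most members this SD was nearly constant, with both its lowest value and its median at 0.20.

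**Figure D2:**
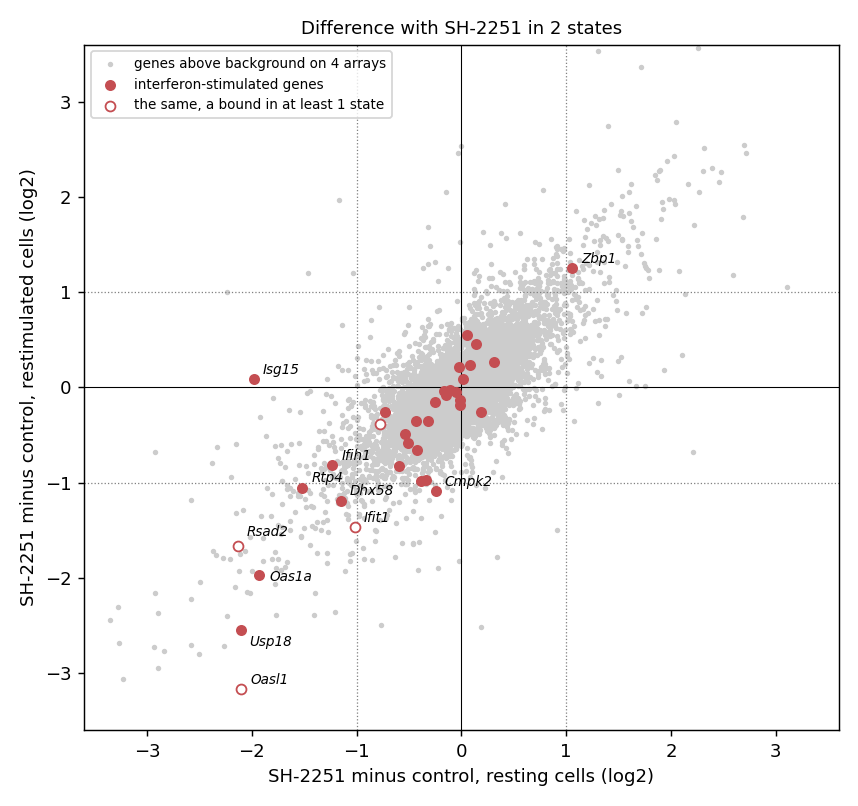
Difference with SH-2251 (log2) in resting cells (x axis) and in restimulated cells (y axis) for the interferon-stimulated genes compared in both states (red, open where a value is a bound), over all genes above background on 4 arrays (grey, 13 of which lie outside the axes). Dotted lines mark 2-fold, and members past 2-fold in either state are named. Most named members lie at the lower left, Zbp1 at the upper right, and Isg15 on the left near 0 on the y axis.

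Isg15 was the member whose difference with SH-2251 itself differed between the states. The difference in restimulated cells minus that in resting cells was 2.07 (technical SD 0.29), and no other of the 31 members above background on 4 arrays reached 1 in size. Over 11518 genes, 0.738% reached 1 upward and 0.478% reached -1 downward. Cmpk2 came next among the members, at -0.84, followed by Irf7 at -0.63.

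With 4 h of restimulation alone, few interferon-stimulated genes passed 2-fold. In control cells 2 of 37 were at least 2-fold lower and 3 higher, against 7.34% and 7.2% of 12757 genes, and the median was -0.20. In SH-2251 cells 3 of 34 were lower and 2 higher, against 6.98% and 7.09% of 12613 genes, and the median was -0.22. At 2-fold these shares are near those of all genes. At 1.5-fold, 21.6% of the members were lower and 10.8% higher in control cells, beside 18.5% and 15% of all genes. In SH-2251 cells 32.4% of the members were lower and 8.82% higher, beside 18.9% and 14.8%.

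Isg15 was higher after restimulation in both cultures, by 1.64 in control and by 3.71 in SH-2251 cells. Among measured genes, the latter ranked 31 from the top of 11766 and the former 280 of 11855. Ifih1 was also higher in both, 2.12-fold and 2.84-fold, and Dhx58 was lower in both, by -1.75 and -1.79. Ifit2 was 1.36 lower on the log2 scale in restimulated than in resting control cells, and Ifit3 1.01 higher. Each was well above background on only 1 of these arrays, and the dim side kept its own signal, so neither value is a minimum. Under the alternatives they ranged from -1.40 to -0.37 for Ifit2 and from 0.31 to 1.01 for Ifit3. In SH-2251 cells Cmpk2 was lower by -1.46 and Xaf1 by -1.12, where in control cells the values were -0.62 and -0.53. For Trim25 a second probe gave 1.08 in control and 1.11 in SH-2251 cells where the probe used gave 0.10 and 0.19.

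**Figure D3:**
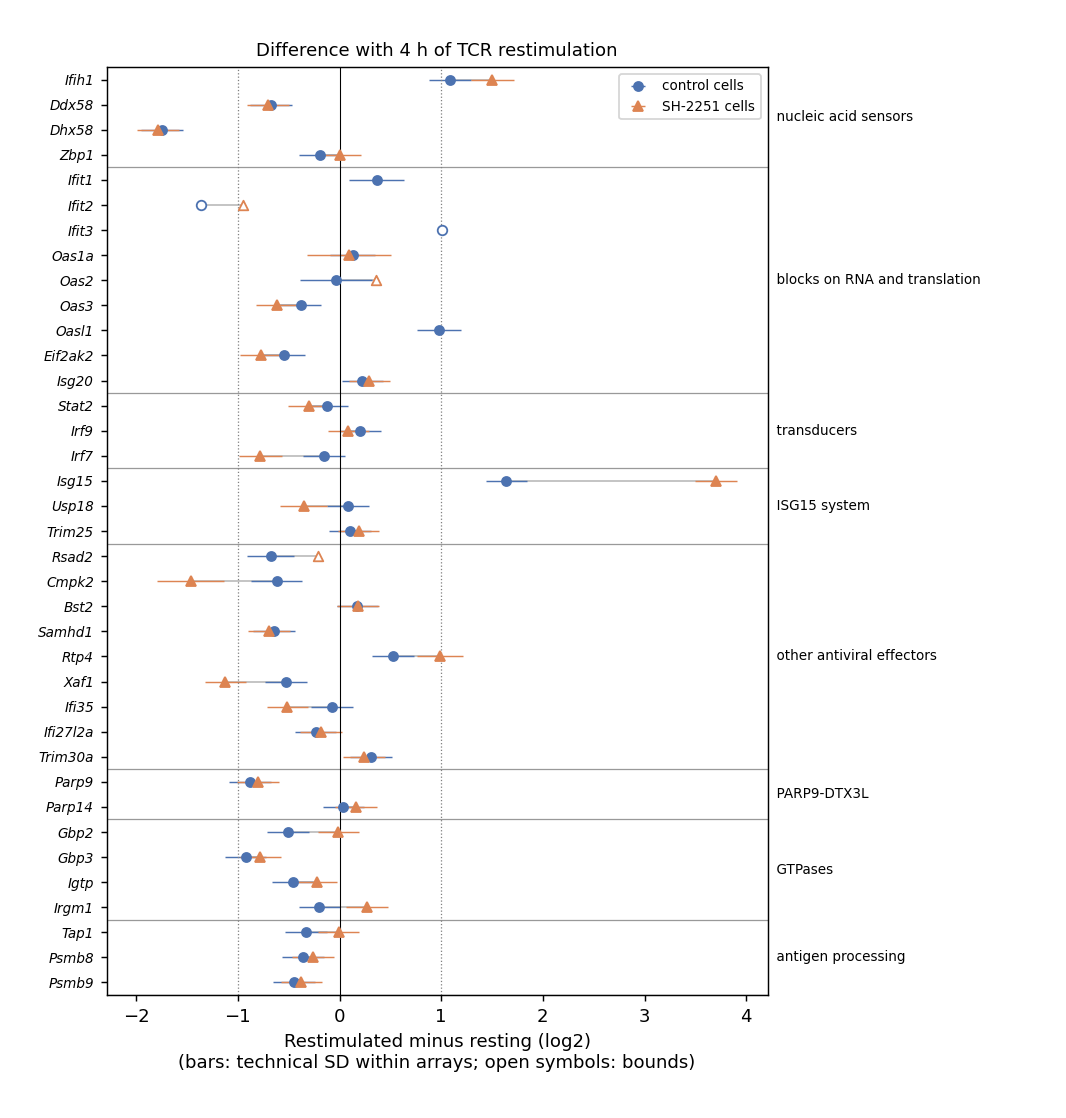
Difference between restimulated and resting cells (log2) in control (blue circles) and SH-2251 cells (orange triangles) for the 37 interferon-stimulated genes above background on at least 1 array, ordered by role. Bars are technical SDs within arrays and open symbols are bounds, except that the dim side of Ifit2 and Ifit3 in control cells kept its own signal. Isg15 stands at 1.64 and 3.71, and Dhx58 at -1.75 and -1.79.

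The ligands and receptors of the pathway were read from a list of 47 genes, of which 37 were above background on at least 1 array. Of 36 compared in resting cells 4 were at least 2-fold lower with SH-2251 and 0 higher, where 2.9% and 2.22% of all genes were. Of 37 in restimulated cells 2 were lower and 1 higher, where 2.78% and 2.65% were. The medians were -0.17 and -0.02, beside -0.06 for all genes in either state. Ifng, the gene of IFN-γ, read -0.58 and -1.04 in resting control and SH-2251 cells and 5.34 and 3.70 after restimulation. Restimulation brought the signal up by 5.92 in control and by 4.74 in SH-2251 cells, and with SH-2251 it was 1.38-fold lower in resting and 3.12-fold lower in restimulated cells. Ifnb1, the gene of IFN-β, was well above background in restimulated control cells alone, at -3.12 or 57.6 intensity units. It was at least 3.08-fold lower with SH-2251 there, a bound of -1.62. The technical SD of 1.45 was that of the unraised difference. The IFN-α genes are near-identical copies, so that their probes may share transcripts. Of these, 4 were above background on all arrays, and Ifna5 was 2.06-fold lower with SH-2251 in resting cells and 1.11-fold lower in restimulated cells. Its resting difference of -1.04 turned to 0.61 with normexp.

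Both subunits of the type I receptor were within 2-fold, with 0.14 and 0.24 for Ifnar1 and 0.25 and 0.43 for Ifnar2. For IFN-γ, Ifngr1 was 2.20-fold lower in resting cells and 1.22-fold lower in restimulated cells, and Ifngr2 differed by 0.59 and 0.52. Ifnlr1, of the receptor for IFN-λ, read -3.69 and -2.90 in resting control and SH-2251 cells and -4.45 and -2.38 in restimulated ones, 4.21-fold higher with SH-2251 in the latter. Il10rb, its partner, differed by -0.22 and -0.10.

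Irf1, an interferon-induced transcription factor, differed by -0.22 and 0.43, and was higher after restimulation by 1.03 in control and 1.68 in SH-2251 cells. Irf8, a factor of the same family, was 2.75-fold lower with SH-2251 in resting and 1.86-fold lower in restimulated cells. Among the inhibitors, Socs1 differed by 0.13 and -0.14, and Socs3 was 2.80-fold lower in resting and 1.77-fold lower in restimulated cells. With restimulation Jak2, a cytoplasmic kinase bound to cytokine receptors, was higher by 1.97 and 2.18. Irf5 was higher by 1.85 in SH-2251 cells and by 0.88 in control cells.

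**Figure D4:**
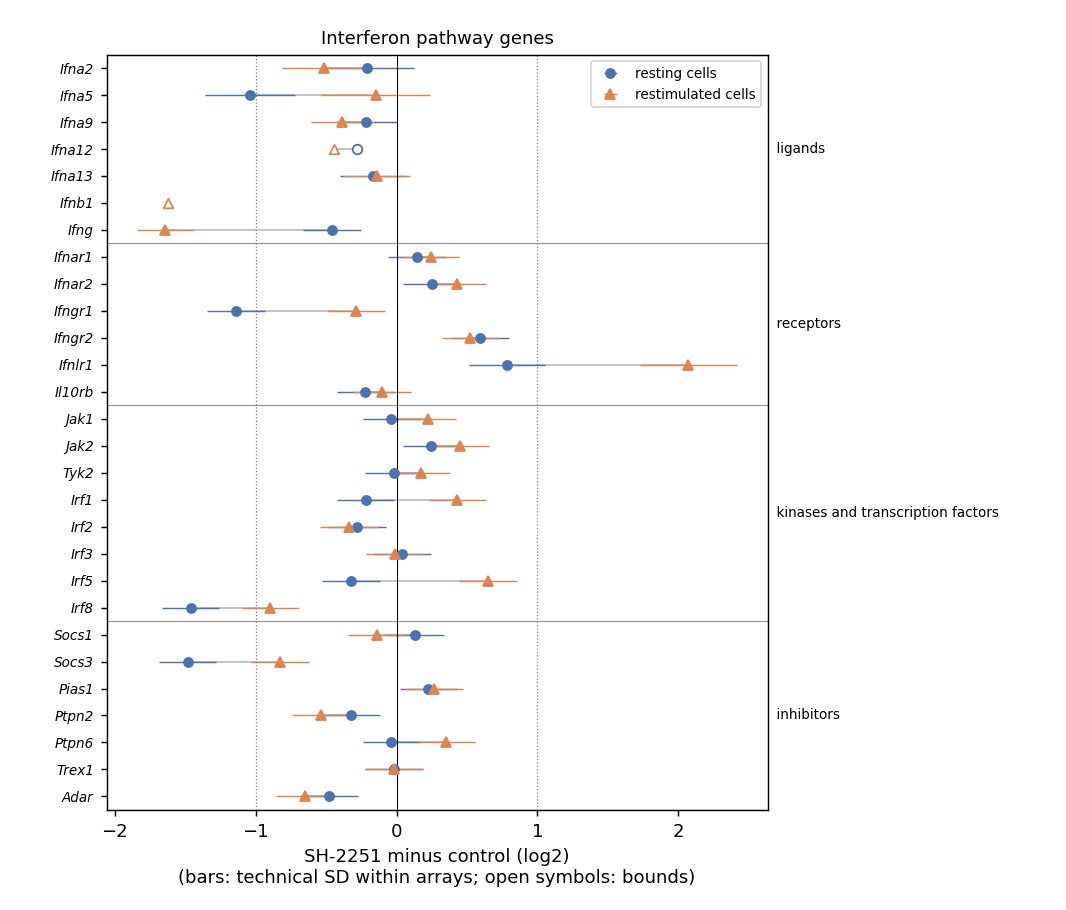
Difference with SH-2251 (log2) in resting (blue circles) and restimulated cells (orange triangles) for the genes of interferon ligands, receptors, kinases, transcription factors and inhibitors that were above background. Bars are technical SDs within arrays and open symbols are bounds. Ifng lies at -0.46 and -1.64 and Ifnlr1 at 0.78 and 2.07.

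A second list held 43 other interferon-induced genes that are not members. In resting cells 2 of 35 passed 2-fold downward and 2 upward, beside 2.9% and 2.22% of all genes. In restimulated cells 1 of 35 did so downward and 2 upward, beside 2.78% and 2.65%. The medians were -0.03 and 0.02, and that of all genes was -0.06 in either state. The lowest in resting cells were Tgtp1 (a GTPase) at -1.36, Lgals3bp at -1.02 and Cxcl10 (a chemokine) at a bound of -0.82, and the highest were Mov10 (an RNA helicase), 2.83-fold higher, Iigp1 (a GTPase) at 1.16 and Gbp4 at 0.79. In restimulated cells the lowest were Cxcl10 at -1.55, Lgals3bp at -0.89 and Pml at -0.89, and the highest Mov10 at 1.60, Iigp1 at 1.25 and Gbp6 at 0.99.

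The promoters of the members were read for the letters these factors are known to bind. RefSeq promoters of assembly GRCm38.p6, from 250 bases before to 50 after the start, were at hand for 32 of the 42 genes. The ISRE core, GAAANNGAAA or its reverse TTTCNNTTTC, was in 16 of the 32 (50%) and in 3.99% of 27025 genes with a promoter. The GAS letters, TTCNNNGAA on either strand, were in 9 of the 32 (28.1%) and in 9.55% of genes. The 2 motifs were counted separately where they overlapped.

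The stretches below, 5′ to 3′ on the strand of the gene and with every ISRE core match before the start in capitals, were chosen after the values were seen to set members past 2-fold lower beside the GTPases, which were not. The first 5 are from members that were at least 2-fold lower with SH-2251 in at least 1 state and hold the core before their start. Ifih1, at -1.23 in resting cells, also had the core in its promoter window and is not shown.
Isg15, chr4:156200860-156200911, minus strand: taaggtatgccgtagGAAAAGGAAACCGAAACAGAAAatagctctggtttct
Ifit1, chr19:34640770-34640828, plus strand: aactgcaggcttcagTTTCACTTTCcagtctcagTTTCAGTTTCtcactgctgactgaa
Ifit3, chr19:34583358-34583431, plus strand: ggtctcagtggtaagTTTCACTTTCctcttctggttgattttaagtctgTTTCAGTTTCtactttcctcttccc
Oas1a, chr5:120907526-120907560, minus strand: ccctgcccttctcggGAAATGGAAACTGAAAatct
Rsad2, chr12:26456548-26456587, minus strand: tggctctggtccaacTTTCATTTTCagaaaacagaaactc
Gbp2, chr3:142620589-142620628, plus strand: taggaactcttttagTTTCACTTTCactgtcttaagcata
Gbp3, chr3:142559984-142560029, plus strand: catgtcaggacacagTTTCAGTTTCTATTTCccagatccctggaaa
Igtp, chr11:58199507-58199546, plus strand: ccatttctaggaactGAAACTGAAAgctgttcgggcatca
Irgm1, chr11:48871421-48871465, minus strand: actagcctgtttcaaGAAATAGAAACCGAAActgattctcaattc

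In Isg15, 3 matches overlapped between 78 and 66 bases before the start, and in Oas1a 2 matches between 20 and 14 bases before it. All 4 GTPases also held the core, 34 bases before the start in Igtp and 59 in Gbp2. The median difference in resting cells was -0.51 for 15 members with the core and -0.24 for 13 without it, and 5 and 1 of them were at least 2-fold lower. In restimulated cells the medians were -0.47 for 16 and -0.21 for 12, and 4 and 2 were at least 2-fold lower. Over all genes, 5.99% of 367 with the core and 2.77% of 9818 without it were at least 2-fold lower in resting cells, and 4.36% of 367 and 2.69% of 9757 in restimulated cells. For the GAS letters, the median in resting cells was -0.15 for 9 members with them and -0.39 for 19 without, and 1 and 5 were at least 2-fold lower. In restimulated cells the medians were -0.12 for 8 and -0.47 for 20, and again 1 and 5 were at least 2-fold lower. Over all genes 4.33% of 877 with the GAS letters and 2.75% of 9308 without them were at least 2-fold lower in resting cells, and 3.36% of 862 and 2.69% of 9262 in restimulated cells. The ISRE core was not in the Oasl1 window. Usp18, Dhx58, Zbp1 and Rtp4 had no entry in the promoter table.

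Markers of other cells that can make or answer interferon were present at unequal levels. All 5 B cell markers were above background on the 4 arrays, and their summed level, in units of the 75th percentile, was 4.65 and 3.72 in resting and restimulated control cells and 5.35 and 5.76 with SH-2251. For myeloid cells 4 of 6 markers were above background, with sums from 2.50 to 3.03, and Lyz2 and Itgam were not. The SH-2251 difference of Fcgr3 was -1.44 in resting cells and -1.11 after restimulation. For dendritic cells 3 of 5 markers were above background, with sums of 0.32 and 0.42 in control cells and 0.30 and 0.66 with SH-2251, and Itgax and Siglech were not. For NK and CD8 T cells 2 of 5 markers were above background on at least 1 array, with sums of 0.10 and 0.17 in control cells and 0.29 and 0.33 with SH-2251, and Ncr1 and Klrb1c were not. Single markers past 2-fold upward with SH-2251 were Cd8a, at 1.45 in resting cells, and Ms4a1 of B cells and Zbtb46 of dendritic cells, at 1.21 and 1.53 in restimulated cells. The part of these cells in the differences above was not tested.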

How the data were processed

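For each array the authors deposited the output of Agilent Feature Extraction (10.7.3.1 per the file headers, 10.7 per the submitters' processing notes), which holds background-corrected intensities. A deposited table gives log2 values, normalized with the Subio Platform per the paper's methods, which matches log2 intensity minus each array's 75th percentile. That scaling was recomputed here. Control spots and spots marked by the software as outliers (77 to 106 on an array) were removed before spots of a probe were averaged. No spot was saturated. Probes (41174) were named through their RefSeq accession and a table for assembly GRCm38.p6. This named 27198 probes (66.1%) and 18539 genes, each represented by its probe of highest mean signal. The arrays were designed on mm9, so coordinates are given for promoter sequences only. Mx1, Mx2 and Dtx3l could not be matched to a probe through the table and are not analysed here, and 1 gene of the pathway list is not reported here. Cross-hybridisation between related genes such as Ifit3 and Ifit3b was not tested.

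A comparison took in each gene with a probe well above background on 1 or both arrays of the pair. With 1, the dim side was raised to the dimmest signal well above background where its own was below that. The 4 arrays, 1 per condition, allow no test, and their number limits the precision. All members could be named, as could genes of the pathway list past 2-fold in a comparison, the receptors, Irf1, Ifng and Socs1, and the 3 largest differences each way on the list of other interferon-induced genes. The members and lists were chosen with earlier results of these data known. The alternatives were other scalings (median, quantile, the authors' table), normexp on median spot signals (the files hold no mean spot signal) with an offset of 50, with and without spots of uneven background, other filters, the mean of all probes, outlier spots kept and a 1.5-fold limit. The procedure was checked on simulated data. Only probes above a set signal were changed there, so probes as dim as those of Oas1a and Ifit1 were not covered. The software was R 4.3.3 (limma 3.58.1) and Python 3.11.15 (pandas 2.3.3, numpy 2.4.6, matplotlib 3.10.9).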

Additional observations from a re-analysis of the deposited data

Results flagged for a closer look

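No member above background on 4 arrays had differences of opposite sign in the 2 states that were each larger than its technical SD. Among the pathway genes named, 4 had. With SH-2251, the resting and the restimulated difference of Irf1 were -0.22 and 0.43, and those of Irf5 -0.32 and 0.65. With restimulation, Ifnlr1 differed by -0.77 in control and 0.52 in SH-2251 cells, and Socs3 by -0.23 and 0.43. With the normexp correction the value of 0.52 for Ifnlr1 turned to -0.42. With 1 array per condition, whether these differences differ from each other was not tested.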

How the results depend on the processing

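Of 160 values of the summary counts, medians and the Isg15 contrast under an alternative, 140 kept to within 1.5 times the reported count or within 1 technical SD, all 40 medians among them. For a median this technical SD was that of a single gene, 0.20, which is a wide limit for medians of this size. The medians ranged from -0.39 to -0.28 in resting cells and from -0.38 to -0.25 in restimulated cells. For restimulation they ranged from -0.26 to -0.15 in control and from -0.35 to -0.05 in SH-2251 cells. At 2-fold, shares of all genes were not computed under the alternatives. In resting cells normexp left 3 members lower and 0 higher, in restimulated cells 2 lower. For restimulation it left 1 lower and 1 higher in control cells, but 5 lower and 1 higher in the SH-2251 culture. For the contrast between states it gave 2 members lower and 1.49 for Isg15. Under normexp Oas1a was at 0.13, Rsad2 at 0.0006 and Ifna5 at 0.61 in resting cells, each opposite in sign to the reported value. Without spots of uneven background Oas1a was at -0.90 and Rsad2 at -1.08, the counts lower were 2 in restimulated cells and 1 for restimulation in control and in SH-2251 cells, and 1 member was higher in control cells. Beyond that, the cause was not tested. With both arrays required above background, 5 members were lower in restimulated cells and 1 for restimulation in control cells. With the mean of all probes Cmpk2 made 1 member lower between states. At 1.5-fold, 14 members were lower in restimulated cells, 8 and 11 for restimulation in control and SH-2251 cells, and 3 between states. Isg15, Usp18 and Dhx58 kept their 2-fold difference in resting cells under each alternative. Usp18, Oasl1 and Zbp1 did so in restimulated cells, Oasl1 having no value where both arrays had to be above background. No array could be left out, with 1 per condition. Dim probes limit what can be measured, and Ifit1, Ifit3 and Oasl1 with SH-2251 are bounds.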
